A study of Mus musculus with 4 samples.

Results

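The neutrophil-primed progenitors described here were 303 of 14915 kept hematopoietic stem and progenitor cells (HSPCs) from mouse bone marrow. A kept cell was a member when it had at least 1 unique molecular identifier (UMI, 1 counted transcript) for 4 or more of 9 neutrophil genes (Mpo, Elane, Prtn3, Cebpe, Hp, Ly6c2, Trem3, Ncf1 and Hk3) and for fewer than 3 of 6 basophil and mast cell genes (Ms4a2, Csrp3, Cd200r3, Cyp11a1, Alox5 and Hdc). HSPCs were sorted as Lin-Sca1+cKit+ Flt3- cells from male C57BL/6-CD45.2 mice, young (2 to 3 months) or aged (17 to 18 months), with no other treatment or genetic change, and captured with the 10x Genomics droplet platform. Each library was a pool of 2 or 3 mice, so that animals cannot be told apart within it. Each age had a pool A, run at the HalioDX facility, and a pool B, run at the TGML facility, from separate batches of mice. By the study's account, young pool A and aged pool B were sequenced to fewer reads per cell than young pool B and aged pool A. Read depth thus differed between ages within each facility, in opposite directions. For 2 libraries (B of young, A of aged mice) a free-text note gives the opposite age, and titles and source names were followed. Cells other than members with 4 or more of 8 stem cell genes were counted as a share of kept cells. With the ages of the titles, pools of 1 age lay together in this share (15.8% and 16.6% in young, 43.8% and 43.5% in aged pools). Of the members, 30 also had 4 or more of these genes.

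Members numbered 161 of 5189 kept cells in young pool A, 38 of 2244 in young pool B, 79 of 3328 in aged pool A and 25 of 4154 in aged pool B. Their summed depth was 1763087, 471984, 776131 and 334267 UMIs in the same order. Members were deep cells, with medians of 11002, 12992.5, 10503 and 13968 UMIs against 5998.5, 6233.5, 5641 and 6707 in the other kept cells, and 252 of 303 exceeded their pool's mean on the log UMI scale. Since the rule counts detected genes, depth enters membership directly. Of 15566 barcodes, 113 sequences occurred in 2 libraries and 2 in 3 libraries, and 8 members shared a barcode with another library. Genes of the immediate-early response stood apart in aged pool A among members and other kept cells alike. Cebpb, a C/EBP transcription factor gene, was at 73.2 and 149 CPM (counts scaled to a common library total, from UMIs summed over the cells of a class) in members of A pools and at 4.24 and 0 CPM in those of B pools, so values are given by pool.

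Neutrophils arise in the bone marrow from multipotent progenitors that first load azurophil (primary) granules with myeloperoxidase and serine proteases and only later make the specific and gelatinase granules. C/EBP factors and PU.1, encoded by Spi1, drive this programme, and the same progenitors can still give monocytes, a choice in which Irf8 favours the monocyte and dendritic side. Priming means that transcripts of a lineage are already present in a cell that carries the surface markers of a multipotent one.

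The 9 rule genes set the members apart by construction, so their levels are given as a description. Mpo, the myeloperoxidase gene (chr11:87793581-87804413, plus strand, GRCm38), stood at 3398 and 5089 CPM in the A and B pools of young mice and at 4363 and 4864 CPM in those of aged mice. In the other kept cells Mpo was at 153, 102, 88.8 and 23.7 CPM. Elane, neutrophil elastase (chr10:79886247-79888215, plus strand), was at 2050, 6178, 3872 and 4634 CPM in members and at 22, 21.2, 30.2 and 3.22 CPM elsewhere. Members thus held 82.6%, 89.6%, 83.2% and 93.6% of all Elane UMIs of kept cells in the 4 pools while holding 4.84%, 2.88%, 3.73% and 1.0% of all UMIs. Prtn3, proteinase 3 (chr10:79874476-79883174, plus strand), which neighbours Elane, was less selective, at 1960, 2648, 2390 and 3066 CPM in members and 427, 571, 911 and 1212 CPM elsewhere. A Prtn3 UMI was found in 85.0%, 88.8%, 93.9% and 97.5% of the other kept cells. The share was 44.6%, 42.6%, 75.0% and 46.7% in those of them with 3 or more of 6 erythroid genes, although these were deeper (medians of 9084, 11147, 6839 and 9775 UMIs). The remaining markers were seen in fewer members: Cebpe, a late granulocyte transcription factor, in 26.7% to 52.0%, Hp, haptoglobin, in 34.2% to 76.0%, Trem3, a myeloid receptor, in 15.8% to 68.0%, and Hk3, a myeloid hexokinase, in 48.0% to 70.9% of members of a pool. None of these 4 exceeded 9.08% of other kept cells in any pool.

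The sequences before the start sites of 4 granule genes are shown because these genes were high together in the members. They are the RefSeq promoter bases on GRCm38.p6, 5′ to 3′ on the gene's strand, cut where an annotated exon begins. For Prtn3 the stretch lies inside the annotated gene, between its exons, since the annotation holds a start further upstream than RefSeq's. Capitals mark AGGAAG or its complement CTTCCT, a purine-rich motif of the PU.1 and ETS type.
Mpo: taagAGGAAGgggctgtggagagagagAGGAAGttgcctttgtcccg
Elane: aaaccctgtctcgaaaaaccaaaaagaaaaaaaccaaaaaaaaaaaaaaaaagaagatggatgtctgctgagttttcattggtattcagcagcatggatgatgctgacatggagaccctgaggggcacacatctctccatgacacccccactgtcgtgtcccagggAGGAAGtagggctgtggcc
Prtn3: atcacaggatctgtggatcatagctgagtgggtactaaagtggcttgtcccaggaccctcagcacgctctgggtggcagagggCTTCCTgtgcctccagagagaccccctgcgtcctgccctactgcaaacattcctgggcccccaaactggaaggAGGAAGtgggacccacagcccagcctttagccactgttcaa
Ctsg: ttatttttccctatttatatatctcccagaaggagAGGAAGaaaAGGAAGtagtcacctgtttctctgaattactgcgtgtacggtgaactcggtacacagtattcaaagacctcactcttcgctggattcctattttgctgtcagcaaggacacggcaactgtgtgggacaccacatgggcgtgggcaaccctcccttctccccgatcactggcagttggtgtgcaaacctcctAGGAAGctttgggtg
These stretches lie at chr11:87793534-87793580 and chr10:79886062-79886246 for Mpo and Elane, at chr10:79879417-79879613 for Prtn3, all on the plus strand, and at chr14:56102575-56102824 on the minus strand for Ctsg. In the 250 bases before the RefSeq start, Mpo and Ctsg each held the motif 3 times, Prtn3 2 times and Elane 1 time, with the third Mpo match inside an annotated exon and not printed. Promoters were matched for 6 of the 9 rule genes and 16 of the 20 genes of the next paragraph, and 5 and 12 of these genes held AGGAAG on either strand in at least 1 promoter, against 32.3% of 27025 genes counted the same way (29.5% of 32851 single promoters of that length). The C/EBP-type motif TTGCNNAA, also searched on both strands and able to share its last letter with AGGAAG, was in 0 and 3 of these genes, against 10.8% of all genes (9.56% of single promoters). A match is a run of letters and says nothing of binding.

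Outside the rule, further granule and myeloid genes were higher in members than in all other kept cells together. The 20 genes with the highest ratio of members to other kept cells in their lowest pool, taken from 3657 genes with at least 20 CPM in the members of every pool, were F13a1, Cldn15, Tifab, Ctsg, Anxa3, Igsf6, Ms4a3, Ccl9, Slc4a8, Clec12a, Atp8b4, BC035044, Irf8, F630028O10Rik, Cst7, Plac8, Ap3s1, Prss57, Fcgr3 and 1700020L24Rik. Ctsg, the granule protease cathepsin G (chr14:56099881-56102574, minus strand), stood at 1786, 2602, 2488 and 3811 CPM in the members and at 124, 90.6, 60.5 and 35.7 CPM elsewhere, so that the 2 sets of pools did not overlap. Ms4a3, a membrane protein gene used to trace granulocyte and monocyte progenitors, was at 285, 583, 604 and 745 CPM against 27.1, 23.9, 24.0 and 9.71 CPM. Plac8 was at 4292, 4960, 3313 and 5636 CPM against 783, 811, 228 and 166 CPM, and was seen in 78.5% to 100% of the members of a pool. Prss57, a neutrophil serine protease gene, Cst7, an inhibitor of cathepsins, Clec12a, an inhibitory myeloid lectin, and Fcgr3, an Fc receptor, were likewise higher in members of every pool. Several of these genes were shared with the basophil and mast cell class, where Fcgr3 was at 266, 449, 280 and 290 CPM against 60.7, 153, 94.1 and 98.7 CPM in members. Ctsg was at 2689, 3083, 1879 and 4059 CPM in that class, above the members in every pool but that of aged mice on platform A, and Ms4a3, Cst7 and Clec12a were above the members in all 4. Prss57 was lower there than in members, at 49.3, 54.7, 59.7 and 53.5 against 81.1, 138, 129 and 108 CPM. The median of the 20 genes was found in 38.5%, 43.4%, 39.2% and 60.0% of the members in the young (A, B) and aged (A, B) pools, and in 16.8%, 25.0%, 21.2% and 32.0% once each member was thinned to 3000 UMIs, so most of these genes were seen in a minority of members at equal depth. Ctsg was still found in 65.2%, 57.9%, 67.9% and 88.0% of thinned members.

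By role, 8 of 11 genes of a primary granule list fixed for this work were higher in members than in other kept cells in every pool, and Lyz2, Srgn and Ctsc were not. Since the rule used Mpo, Elane and Prtn3, this was 5 of 8 genes outside it. Of all 10162 genes with at least 10 UMIs in members, 15.4% were higher and 32.5% lower in members of every pool, which is the background for this and the counts below. Genes of the later granules were near 0: of 14 on that list, 6 had 0 UMIs in all members, among them Ltf (lactoferrin), Chil3 and Mmp9, and Camp and Ngp had 1 UMI each. Hp, which the rule used, S100a8 and Lcn2 made up most of what remained. S100a8, a calprotectin subunit, was at 4.54, 29.7, 121 and 38.9 CPM, and 1 cell held 61.7% of its UMIs in the aged A pool and 100% in the aged B pool. Of 9 myeloid transcription factor genes with at least 10 UMIs in members, 6 were higher in members of every pool, the rule gene Cebpe included, and 0 lower. Gfi1, Cebpb and Runx1 were not, with Gfi1 at 28.9, 6.36, 32.2 and 0 CPM in members. Cebpa was at 127, 12.7, 82.5 and 38.9 CPM in members against 20.2, 2.45, 6.70 and 0.455 CPM elsewhere. Spi1 was at 238, 284, 204 and 299 CPM against 145, 125, 85.6 and 92.2 CPM. The sum of the list was 952, 782, 1165 and 856 CPM in members. In the basophil and mast cell class it was 1201, 493, 1331 and 517 CPM, above the members in both A pools. Of 10 myeloid receptor genes with at least 10 UMIs in members, 6 were higher in members of every pool and 0 lower, and the sum of the list was 310, 360, 392 and 299 CPM against 131, 128, 151 and 62.2 CPM. In the basophil and mast cell class that sum was 532, 663, 615 and 517 CPM, above the members in every pool. Csf3r, the receptor for granulocyte colony-stimulating factor, was at 32.9, 23.3, 33.5 and 2.99 CPM against 16.7, 15.4, 31.7 and 13.8 CPM, which overlapped.

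**Figure D1:**
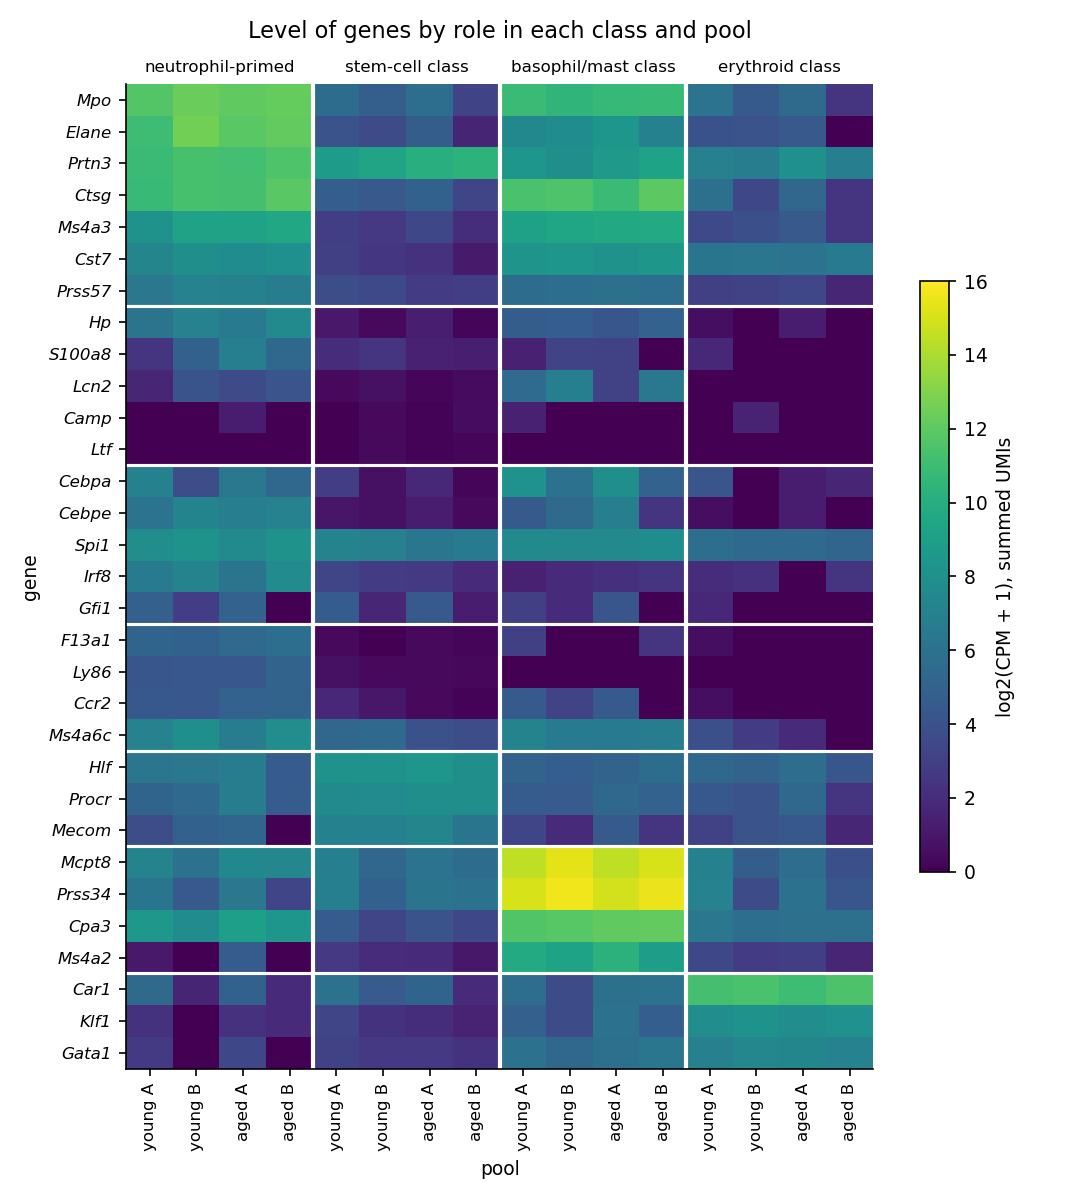
Level of genes (rows, grouped by role) as log2(CPM + 1) from summed UMIs in neutrophil-primed members and in 3 other classes of kept cells, with 1 column for each pool. The granule genes are bright in the members, Ltf and Camp are dark in every class, and Irf8 and Ly86 separate the members from the basophil and mast cell class, which shares Ctsg, Ms4a3 and Mpo with them.

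Monocyte genes accompanied the neutrophil genes. Of 9 monocyte and dendritic cell genes with at least 10 UMIs in members, 8 were higher in members of every pool. The sum of the list was 343, 576, 352 and 760 CPM in members and 79.9, 67.4, 92.5 and 25.2 CPM in other kept cells. In the basophil and mast cell class it was 283, 372, 246 and 254 CPM, so that class shared part of this level. Irf8 was at 98.7, 140, 70.9 and 212 CPM in members and 13.6, 7.60, 7.94 and 4.49 CPM elsewhere. F13a1, the factor XIII A chain made by monocyte precursors, was at 34.0, 29.7, 43.8 and 53.8 CPM against less than 1 CPM elsewhere, and Csf1r, the receptor for macrophage colony-stimulating factor, was at 9.64, 10.6, 6.44 and 20.9 CPM. Siglech, a plasmacytoid dendritic cell gene, had 0 UMIs in members. A UMI of Irf8 was found in 114 members and one of Cebpe in 102, with 39 holding both, 75 Irf8 alone, 63 Cebpe alone and 126 neither, where Cebpe was itself a rule gene. Irf8 was found in 36.6%, 36.8%, 29.1% and 72% of members of the 4 pools, against 4.47%, 4.99%, 3.42% and 2.64% of the other kept cells, which were shallower. Of 10 basophil, mast cell and eosinophil genes with at least 10 UMIs in members, 2 (Hdc and Cpa3) were higher in members of every pool. Lower in every pool were 4 (Mcpt8, Prss34, Fcer1a and Gata2), all outside the rule. The rule used 4 of the 10 as excluding genes, Hdc among them, so their direction is partly set by the rule. Single UMIs of the excluding genes remained below the limit: 131 members had 1 or 2 of the 6 excluding genes and 172 had 0, and 61 cells that passed the neutrophil markers were excluded. Hdc, histidine decarboxylase, was at 60.1, 63.6, 74.7 and 59.8 CPM in members, against 383 to 462 CPM in cells with 3 or more of the 6 genes. Cpa3, mast cell carboxypeptidase, was at 372, 222, 531 and 332 CPM in members, 3225 to 4500 CPM in that basophil and mast cell class and 38.1 to 138 CPM in all other kept cells. Mcpt8, a basophil protease, was at 140, 63.6, 178 and 171 CPM in members and 131, 25.6, 52.4 and 13.7 CPM in the erythroid class, which should lack it, and was below all other kept cells together (803, 914, 359 and 241 CPM). Its part in the results was not tested. Prg2, the eosinophil major basic protein, came from single cells, of which 1 held 1435 of 1444 member UMIs in young pool A and 1 held 183 of 187 in aged pool A.

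Members differed widely among themselves by the number of rule genes detected. In the young (A, B) and aged (A, B) pools, 94, 17, 34 and 5 members had exactly 4 of the 9 genes, and 45, 13, 34 and 16 had 6 or more. Cells with exactly 4 genes made up 58.4%, 44.7%, 43.0% and 20% of the members. Just outside the rule, 397, 93, 300 and 22 cells had 3. Ctsg, which the rule did not use, was at 138, 110, 92.7 and 383 CPM in cells with 3 genes, at 613, 268, 548 and 1555 CPM in those with 4 and at 3523, 5105, 4064 and 4849 CPM in those with 6 or more. It was detected in 70 of 150 members with 4 genes (46.7%) and in all 108 members with 6 or more. Ms4a3 followed the same order, at 62.7, 26.8, 137 and 66.2 CPM with 4 genes and 666, 1309, 1017 and 1036 CPM with 6 or more. The ranges of these 2 groups of cells did not overlap for either gene.

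Stem cell genes ran the other way. Hlf, a transcription factor of hematopoietic stem cells, was at 220, 216, 297 and 197 CPM in cells with 0 or 1 rule gene, at 130, 161, 207 and 99.2 CPM in members with 4 and at 9.97, 20.8, 30.6 and 0 CPM in members with 6 or more. Procr, which encodes the stem cell surface protein EPCR, was at 55.1, 80.3, 196 and 82.7 CPM with 4 genes and 6.64, 15.6, 28.0 and 13.7 CPM with 6 or more. A UMI of Hlf, Procr or Mecom was present in 106 of 150 members with 4 genes (70.7%) and in 31 of 108 with 6 or more (28.7%), of which 17 were in aged pool A. By pool the second share was 20%, 23.1%, 50% and 12.5%. Hlf alone was found in 54.3%, 70.6%, 58.8% and 40% of members with 4 genes, against 21.5%, 12.8%, 26.1% and 11.1% of the erythroid class. Members with 6 or more genes had Hlf in 8.89%, 15.4%, 26.5% and 0%, at about the erythroid-class share or below. Stem cell transcripts were thus found beside neutrophil genes in members with 4 genes, and the label neutrophil-primed describes the members with 6 or more genes more fully than those at the threshold. Erythroid and megakaryocyte genes were low throughout, with Klf1 at 3.97, 0, 3.87 and 2.99 CPM and Pf4 at 35.7, 21.2, 34.8 and 12 CPM in members against 175 to 273 CPM elsewhere, and 4 members had 3 or more of the 6 erythroid genes.

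**Figure D2:**
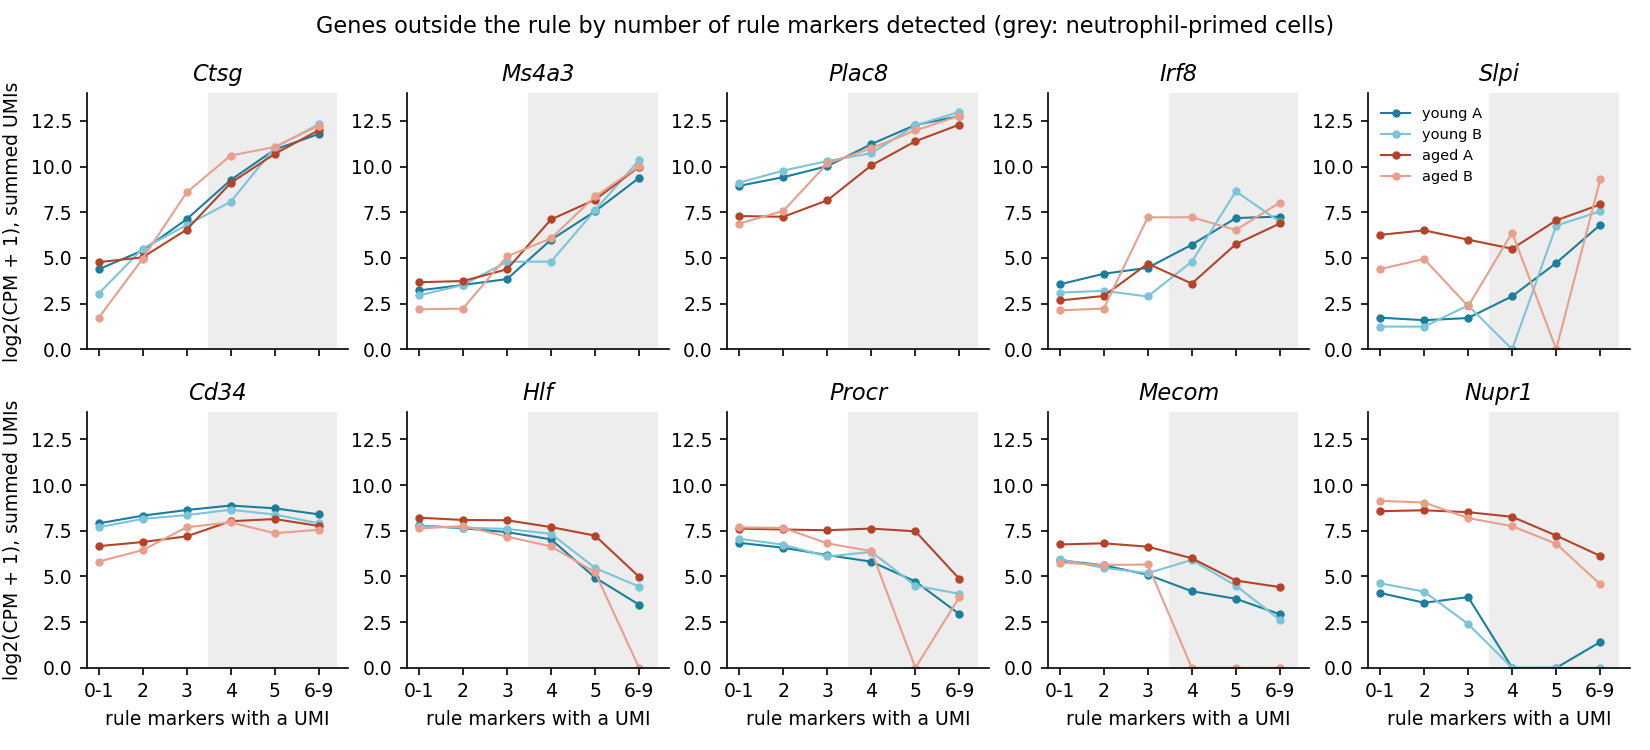
Levels of 10 genes outside the rule, as log2(CPM + 1) from summed UMIs, in kept cells grouped by the number of rule genes with a UMI, with fewer than 3 basophil and mast cell genes. Each line is a pool and the grey area holds the members. Ctsg, Ms4a3 and Plac8 climb in all 4 pools, Hlf and Procr drop within the grey area, and Nupr1 lies higher in both aged pools at each step.

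Members were richer in transcripts of DNA synthesis than all other kept cells together, but not than the erythroid class. The summed level of 14 S phase genes was 1764, 1587, 1658 and 1457 CPM in members and 1221, 1115, 867 and 647 CPM in other kept cells, with 13 of 14 genes higher in every pool. In the erythroid class the sum was 1823, 1604, 2266 and 1699 CPM, above the members in each pool, and in the basophil and mast cell class it was 1616, 1302, 1678 and 1110 CPM. Mcm5, a subunit of the replicative helicase, was at 133, 119, 116 and 135 CPM against 82.1, 71.1, 45.9 and 37.8 CPM. Of 14 mitosis genes 6 were higher in members of every pool and 2 lower, and their sum was 928, 799, 491 and 835 CPM against 864, 715, 391 and 549 CPM. Of 8 growth genes, Npm1 and Ncl (nucleolar proteins) among them, 7 were higher in every pool, with sums between 1.15 and 1.42 times those of other kept cells, while the erythroid class exceeded the members in all 4 pools (5489, 5422, 5538 and 6275 against 4810, 4521, 4057 and 5193 CPM). Surface genes of the sort split: Cd48, which marks multipotent progenitors rather than stem cells, was at 265, 271, 237 and 332 CPM against 67.3, 63.5, 23.6 and 8.38 CPM, while Kit was lower in members of every pool. Flt3, whose protein the sort excluded, was at 55.0, 16.9, 24.5 and 2.99 CPM in members and 47.6, 14.9, 9.99 and 2.40 CPM elsewhere.

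The first comparison asked whether the share of neutrophil-primed cells differed with age. They made up 3.10% of kept cells in young pool A (exact 95% binomial interval 2.65 to 3.61) and 1.69% in young pool B (1.20 to 2.32), against 2.37% in aged pool A (1.88 to 2.95) and 0.602% in aged pool B (0.390 to 0.887). These intervals cover counting error only. The young share was 1.31 times the aged share on platform A and 2.81 times on platform B, but the age groups overlapped, since young pool B lay below aged pool A, and the mean difference did not exceed the spread between pools (log2 ratio of the aged to the young mean −0.69, two-sided exact permutation p = 0.667, n = 2 pools per age). With 2 pools against 2 the smallest p this test allows is 0.333. Pools were not paired by platform in it, and the overlap lies between pools of different platforms. The order on platform A depended on where the line was drawn: with 5 or more genes the shares were 1.29%, 0.936%, 1.35% and 0.481%, and with cells thinned to 3000 UMIs they were 1.08%, 0.820%, 1.40% and 0.458%, with aged pool A above young pool A both times. Aged pool B was lowest in each of these counts.

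**Figure D3:**
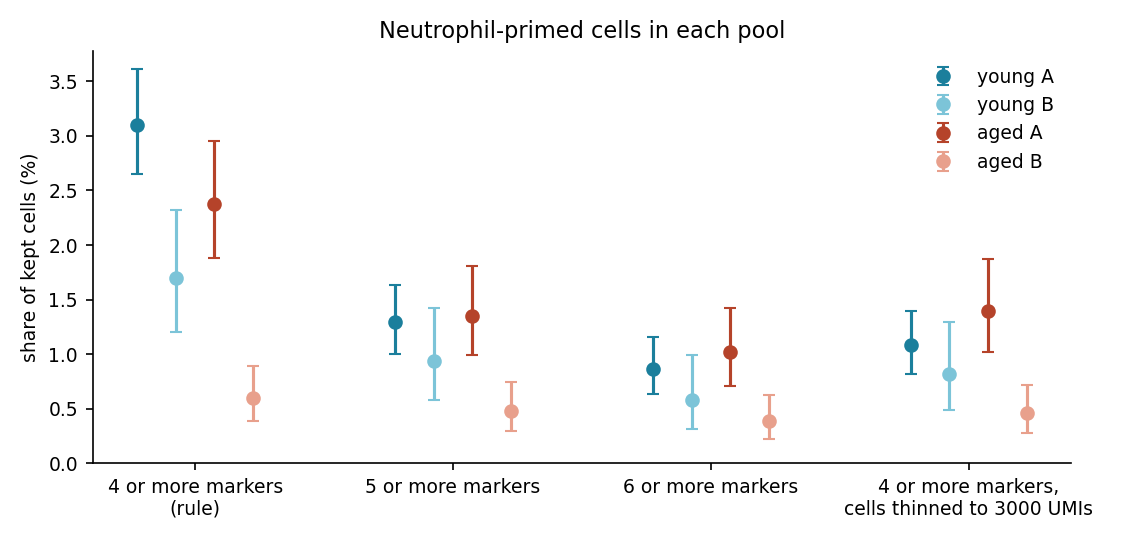
Share of kept cells (percent) that were neutrophil-primed in each pool under the rule, with stricter marker numbers and after thinning, with exact 95% binomial intervals for counting error. Aged pool B is lowest throughout, and young pool A lies above aged pool A under the rule only.

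The second comparison asked which genes changed with age inside the class. UMIs were summed over the members of each pool and tested with edgeR's quasi-likelihood test with platform as a block. Of 6044 genes tested, 8 (0.132%) had an adjusted p under 0.05, all higher in aged members and all in the same direction on both platforms, while 147 had an unadjusted p under 0.05. Nupr1, a stress-induced transcriptional regulator (chr7:126623249-126630861, minus strand), was at 0.567 and 0 CPM in the A and B pools of young mice and at 164 and 71.8 CPM in those of aged mice, without overlap. This was 1 UMI over all young members against 151 over all aged members, a ratio of 304 with an exact counting interval of 53.7 to 12084 (edgeR adjusted p = 1.8e-05). Cldn5, a tight junction gene, rested likewise on 1 UMI against 48 (ratio 96.6, interval 16.5 to 3895, edgeR adjusted p = 0.0083). Sdpr, a component of caveolae, was at 2.27 and 0 CPM in young and 46.4 and 32.9 CPM in aged members (log2 fold change 4.54 ± 0.74 SE, edgeR adjusted p = 0.020). Sult1a1, a sulfotransferase, was at 5.10 and 4.24 CPM against 133 and 20.9 CPM (4.24 ± 0.54, edgeR adjusted p = 0.0028).

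These 4 genes were higher in other kept cells than in members of both aged pools and, within the class, higher in members with 4 rule genes than in those with 6 or more, except for Sult1a1 in aged pool B (16.5 against 18.3 CPM). In the aged A and B pools, Nupr1 was at 380 and 554 CPM in other kept cells, at 307 and 215 CPM in members with 4 rule genes and at 68.8 and 22.8 CPM in those with 6 or more. It was at 90.1 and 61.6 CPM in the erythroid class of the same pools. A Nupr1 UMI was found in 57.0% and 40.0% of aged members and in 44.6% and 22.2% of aged erythroid-class cells, which were shallower (medians of 6839 and 9775 UMIs). For Sdpr the shares were 22.8% and 28.0% of aged members and 25.0% and 28.9% of aged erythroid-class cells, so it was not found in a larger share of members than of that class. The part of free RNA and of the members with 4 genes in these calls was not tested.

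Slpi, the secretory leukocyte protease inhibitor, which blocks neutrophil elastase and cathepsin G, had the opposite distribution. It was at 44.8 and 97.5 CPM in young and 157 and 428 CPM in aged members, without overlap (log2 fold change 1.95 ± 0.28 SE, edgeR adjusted p = 0.0083). In members with 5 or more rule genes it was at 87.1 and 161 CPM in young and 217 and 504 CPM in aged pools, while in the erythroid class it was at 3.67, 1.97, 33.6 and 11.4 CPM. A UMI of Slpi was found in 22.4% and 34.2% of young and 51.9% and 64.0% of aged members. Outside the class its change had the same sign (2.43 ± 0.54 SE) but missed the threshold (edgeR adjusted p = 0.086).

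The remaining called genes were highest in aged pool A. Fos and Dusp1, an AP-1 subunit and a phosphatase of the immediate-early response, were at 70.3 and 48.8 CPM in members of young pool A and 652 and 345 CPM in those of aged pool A. On platform B, Fos was at 21.2 and 102 CPM, and 1 cell held 27 of the 34 Fos UMIs of aged pool B, while Dusp1 was at 6.36 and 44.9 CPM, a log2 difference of 2.64 against 2.80 on platform A. The sum of 10 immediate-early genes was 780, 311, 2826 and 646 CPM in members and 1175, 414, 4148 and 928 CPM in other kept cells, so aged pool A stood apart in both. In other kept cells Igkc was at 389 and 268 CPM in young and 3238 and 1687 CPM in aged pools, where it was called as well (2.80 ± 0.27 SE, edgeR adjusted p = 0.012). Igkc, the immunoglobulin kappa constant gene, was at 61.3, 21.2, 700 and 62.8 CPM in members and at 57.7, 33.5, 659 and 68.4 CPM in the erythroid class, and it was found in 98.7% of members and 95.7% of erythroid-class cells of aged pool A. Single barcodes with up to 17705 Igkc UMIs were present. The part of free RNA in the level of members was not tested.

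**Figure D4:**
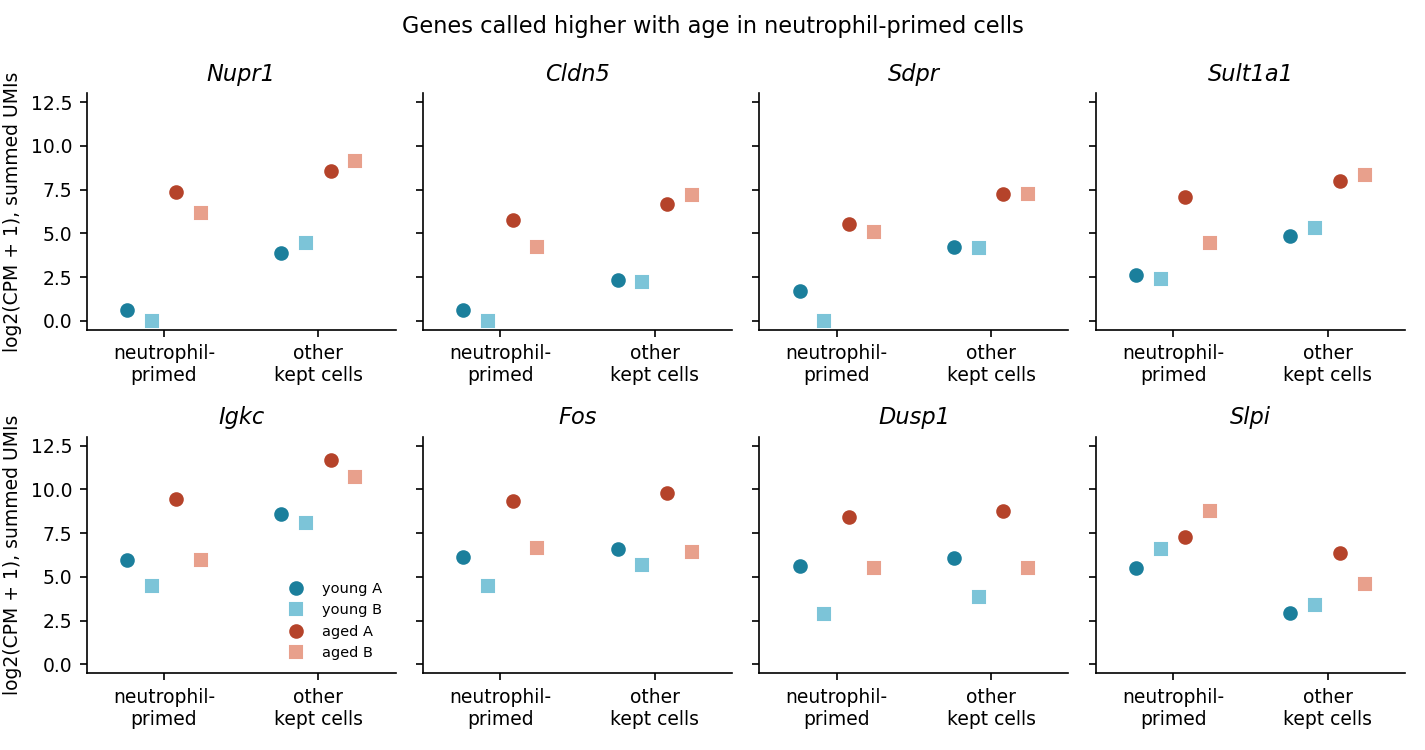
Level of the 8 genes called higher with age, as log2(CPM + 1) from summed UMIs, in neutrophil-primed members and in other kept cells. Circles are A pools and squares B pools. Among the members both aged pools lie above both young pools in every panel but that of Dusp1, where aged pool B (44.9 CPM) lies below young pool A (48.8 CPM), and for Igkc the gap between these pools is 62.8 against 61.3 CPM.

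No gene was called lower with age in this fit. Among the alternatives, 2 genes were called lower with RLE size factors and 5 without a low-count filter. With 3 or more rule genes 8 were called lower, and 2 with barcodes found in another library left out. The 5 lower genes with the smallest p, none called, were Prg2, Gm5111, Rnase6, Top2a and Prg3, and the values of Prg2 and Prg3 came mostly from single cells. Top2a, a topoisomerase of dividing cells, was at 141 and 163 CPM in young and 73.4 and 74.8 CPM in aged members, without overlap, with a log2 fold change of −1.04 ± 0.28 SE (edgeR adjusted p = 0.58). Of the 13 mitosis genes tested 0 were called, and all had a negative fold change, with a median of −0.51 against 0.02 over all 6044 genes. Platform A carried this sign: on platform B 7 of the 13 genes were higher in aged members, Birc5 (0.65) and Ccnb1 (0.48) among them, and the sum of the list was 799 CPM in young and 835 CPM in aged members. Of 5 interferon response genes tested 0 were called, with a median of −1.14. The calls as a set rested on design choices: 0 genes were called without the block (edgeR, 41 at an unadjusted p under 0.05), with 5 or more rule genes (85), with members thinned to 3000 UMIs (49) and without aged pool A (180), and DESeq2 called 4. Leaving out young pool A or young pool B gave 23 calls each, and leaving out aged pool B gave 14.

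The changes of the primary granule genes with age inside the class did not pass the test. Of the 11 primary granule genes 0 were called in members, 9 had a positive fold change and the median was 0.23. Membership partly fixes Mpo, Elane and Prtn3, and of the 8 genes outside the rule 6 had a positive fold change, with a median of 0.32. Mpo changed by 0.13 ± 0.30 SE and Ctsg by 0.50 ± 0.29 SE on the log2 scale, and the widest change was that of Ms4a3 (0.70 ± 0.30 SE). Members with exactly 4 rule genes were 58.4% and 44.7% of young and 43.0% and 20% of aged members (A, B). In members with 5 or more, the list summed to 19020.8 and 30835.3 CPM in young and 21892.7 and 22888.5 CPM in aged pools, lower with age on platform B. The part of this mix in the fold changes was not tested. Outside the class 3 of 11 were called lower (Ctsg, Cst7 and Serpinb1a), and the median was −0.97 (−0.88 over the 8 genes outside the rule), where 410 of 13512 genes (3.03%) were called in all, 311 (2.3%) higher and 99 (0.733%) lower. The rule moves cells with these genes out of the other group in both ages.

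**Figure D5:**
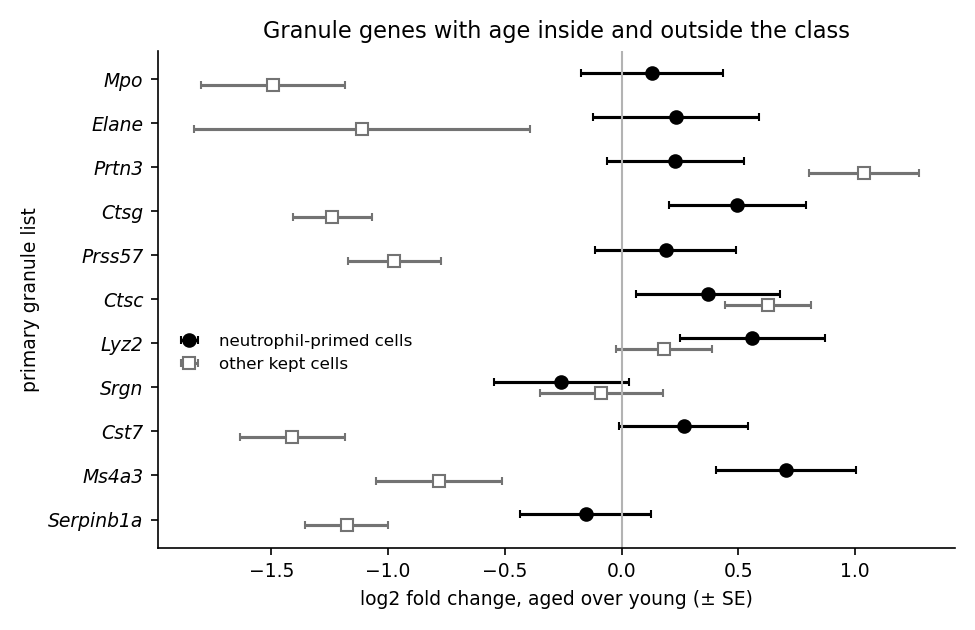
Log2 fold change of aged over young (± SE, edgeR with platform as a block, 2 pools per age) for 11 primary granule genes in neutrophil-primed members (filled) and other kept cells (open). The filled points lie between −0.26 and 0.70, and the open points of Mpo, Elane, Ctsg, Prss57, Cst7, Ms4a3, Serpinb1a and Srgn lie below 0, that of Srgn by less than its error.

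The third comparison tested whether the age change differed between members and other kept cells, in 1 model with pool as a block. Of 12724 genes 63 (0.495%) had an adjusted p under 0.05, 58 (0.456%) with a higher and 5 (0.0393%) with a lower aged-to-young ratio in members, and the 63 held 4 of the 9 rule genes (Mpo, Elane, Prtn3 and Ncf1) and 2 of the 6 excluding genes (Ms4a2 and Hdc). Since the rule split the groups on these genes, they are no result. Of the 12709 genes outside the rule 57 were called, 53 of them higher. Cd48 was even across ages in members, at 265 and 271 CPM in young and 237 and 332 CPM in aged pools, while in other kept cells it was at 67.3 and 63.5 CPM in young and 23.6 and 8.38 CPM in aged pools (difference 2.19 ± 0.23 SE on the log2 scale, edgeR adjusted p = 1.3e-17). Plac8 (1.93 ± 0.15 SE), Ctsg (1.69 ± 0.17 SE) and Ncf4, a subunit of the phagocyte NADPH oxidase (2.25 ± 0.34 SE), also had a higher aged-to-young ratio in members, with Ctsg at 1786 and 2602 CPM in young and 2488 and 3811 CPM in aged members. In the opposite direction, Mt1, a metallothionein, was at 44.2 and 33.4 CPM in young and 297 and 374 CPM in aged other cells but at 78.8 and 174 CPM in young and 276 and 248 CPM in aged members (−1.86 ± 0.22 SE, edgeR adjusted p = 1.7e-13). Rtp4, an interferon-induced gene, was at 57.9 and 42.4 CPM in young and 21.9 and 26.9 CPM in aged members, and at 75.5, 88.4, 88.0 and 167 CPM elsewhere. The composition of the other cells differed with age as well, as the shares of cells with stem cell genes given above show. Its part in these differences was not tested. By platform the difference of Cd48 was 1.31 on A and 3.07 on B. DESeq2 put it at 2.26 ± 0.53 SE (DESeq2 adjusted p = 0.016). For Mt1 DESeq2 gave −1.93 ± 0.47 SE (DESeq2 adjusted p = 0.030). Against the basophil and mast cell class in place of all other cells, 2 genes were called and none of the 63 was among them. Without aged pool A 266 genes were called, and without young pool A, young pool B and aged pool B 18, 36 and 43. Sizes moved too: the difference of Cd48 was 3.27 without aged pool A, 1.33 without aged pool B and 0.13 against the basophil and mast cell class, and that of Mt1 was −2.69 without young pool A, −1.21 without young pool B and −0.27 against that class.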

How the data were processed

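Single-cell RNA-seq libraries of 4 pools of mouse HSPCs (2 young, 2 aged) were analysed. The authors sequenced 10x Genomics 3′ libraries, processed them with Cell Ranger 2.2.0 on mm10 (GRCm38.p4, per the labels) and deposited filtered matrices of UMI counts, which were used as they stand. Barcodes whose log UMI count lay within 2 SD of the pool mean were kept (14915 of 15566), which was also the only treatment of doublets; no doublet caller was run. Members were found by the marker rule. The members, gene lists and tests were chosen with earlier results of these data known.

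UMI counts were summed per pool and class. Age was tested in members with edgeR 4.0.16 (quasi-likelihood test, TMM, genes passing filterByExpr, platform as a block, Benjamini-Hochberg adjustment over all genes tested), and the class-by-age difference in 1 model with pool as a block. Shares were compared with a two-sided exact permutation test that did not pair pools by platform. With 2 pools per age, p-values concern only these pools. For each gene edgeR takes its error largely from the spread over all genes tested. Its p-values and SEs thus do not measure the spread of that gene between pools alone. Members against other cells are described without a test, since the rule used those values. Same-lettered young and aged pools deviated together (correlation of 0.423 in members over 6044 genes and 0.576 in other kept cells over 13512). Platform and batch of mice share the letter and cannot be told apart, and the cause was not tested.

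Genes were named by rule: the 9 rule genes, fixed role lists, the 20 genes with the highest lowest-pool ratio of members to others, and up to 10 called genes per direction that moved the same way on both platforms, or otherwise the 5 with the smallest p, given as not called. Alternatives were DESeq2 1.42.0, RLE size factors, no low-count filter, no block, other marker numbers, thinning to 3000 UMIs (0, 50, 176 and 4 shallower kept cells of the young A, young B, aged A and aged B pools were left out) and leaving out each pool. R 4.3.3, Python 3.11.15, numpy 2.4.6 and scipy 1.17.1 were used. Promoters came from RefSeq (GRCm38.p6) and gene coordinates from GENCODE (GRCm38). One gene of the stem cell list and one of the receptor list are not reported here.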

Additional observations from a re-analysis of the deposited data

Results flagged for a closer look

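Of 651 barcodes outside the UMI range, used in none of the report's comparisons, 133 (20.4%) met the marker rule, against 303 of 14915 kept cells. By pool these were 63, 32, 35 and 3 barcodes (young A, young B, aged A, aged B), or 26.0%, 34.4%, 25.2% and 1.69% of those dropped. Most of the dropped barcodes (640) lay above the range, and whether they are doublets or large single cells was not tested. With these barcodes kept, the shares were 4.12%, 3.00%, 3.29% and 0.647%, the log2 ratio of aged to young was −0.86 against −0.69, and the young share on platform B was 4.63 times the aged share against 2.81 times.

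The change with age differed between members and other kept cells for 63 genes by the class-by-age test (edgeR, adjusted p under 0.05). The rule had used 6 of these genes, which are no result. Among the called genes outside the rule that moved the same way on both platforms, those with the widest difference on the log2 scale were Mcemp1 (6.59), Ms4a4c (4.07), S100a8 (3.36), Fcer1a (3.21), Nupr1 (3.20), BC035044 (2.38), Ncf4 (2.25), Cd48 (2.19), Mcpt8 (2.18) and Tespa1 (2.03) in the direction of a higher aged-to-young ratio in members. In the opposite direction they were Mt1 (−1.86), Rtp4 (−1.68), Ighm (−1.29) and Nrgn (−0.95). Mcemp1 rested on 0, 1, 1 and 10 UMIs in members of the 4 pools, with 7 of the 10 in 1 cell, Ms4a4c on 4, 3, 1 and 12, Fcer1a on 3, 0, 12 and 0, and Nupr1 on 1 UMI in young members. In aged pool A 1 cell held 58 of 94 S100a8 UMIs of members. With 1 pool left out the differences ranged from 2.80 to 12.8 for Mcemp1, 0.63 to 5.46 for Ms4a4c, 2.2 to 4.43 for S100a8 and 2.10 to 9.28 for Nupr1. They ranged from 1.25 to 3.84 for BC035044, 1.30 to 3.10 for Tespa1 and −1.82 to −0.45 for Nrgn. Against the basophil and mast cell class the difference was 0.80 for BC035044, 0.56 for Ncf4 and 0.91 for Mcpt8, but 4.39 for Nupr1. Of the alternatives that tested them, 0 of 8 called Mcemp1 and 2 of 8 Ms4a4c, and of 9 alternatives 2 called Fcer1a, 3 Nupr1, 4 Tespa1, 4 Nrgn and 5 S100a8. Fcer1a had no UMI in members on platform B, so its difference rests on platform A. In other cells BC035044, Ncf4 and Cd48 were lower in each aged pool than in either young one. In members the aged-to-young log2 ratio of BC035044 was −0.71 on platform A and 0.33 on platform B, that of Ncf4 −0.21 and 0.76, and that of Cd48 −0.16 and 0.29.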

How the results depend on the processing

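The number of genes called with age in members was 8 and depended on the settings. It was 0 without the replicate block, 4 with DESeq2, 32 with RLE size factors, 57 without a low-count filter, 0 with members thinned to 3000 UMIs, 91 with 3 or more markers, 0 with 5 or more and 23 with barcodes found in another library left out (chosen after seeing the data). Leaving out 1 pool gave 0 to 23 calls, with 0 without aged pool A; the lone pool of an age is then assumed to vary like the others. All 8 genes kept a positive fold change in each alternative that tested them, but its size moved. On the log2 scale it ranged from 0.65 to 4.69 for Dusp1, 0.62 to 3.98 for Igkc, 1.16 to 3.92 for Fos and 3.91 to 7.39 for Sdpr. For Nupr1 it ranged from 5.26 to 8.94, and for Slpi, which 4 of 12 alternatives called, from 1.0 to 2.84. In other kept cells 410 genes were called with the block and 0 without it (1113 at an unadjusted p under 0.05). The class-by-age count of 63 was 11 with DESeq2, 2 against the basophil and mast cell class and 18 to 266 with 1 pool left out. The difference reversed for Fcer1a without aged pool A (−6.91) and for Tespa1 against the basophil and mast cell class (−0.58); the cause was not tested. The mean over pools of the median share of members with a UMI of the 20 genes was 45.3%, and 23.7% after thinning. The share of members had a log2 ratio of aged to young of −0.69, which ranged from −1.99 to −0.01 with 1 pool left out. It kept its sign in every alternative run but was near 0 with cells thinned to 3000 UMIs (−0.035) and with 6 or more markers (−0.040). The 25 members of aged pool B gave 334267 UMIs, the smallest depth of the 4 pools.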

Other observations

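Some gene groups belong to no comparison above. In aged against young members 0 of 14 S phase genes tested were called (median log2 fold change −0.07), and 0 of 8 growth genes (−0.01), 0 of 6 stem cell genes (0.38), 0 of 6 monocyte and dendritic cell genes (0.22) and 0 of 3 later granule genes (1.12), where 0.132% of all genes tested were called. Of 7 immediate-early genes tested 2 were called higher (Fos and Dusp1) and all 7 had a positive fold change (median 1.44). Of 17 tested genes that the study had picked as changed with age, which is no independent evidence since it used these samples, 1 was called (Nupr1), with a median of 0.79.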
